A study of Mus musculus with 8 samples.

Results

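The genes described here are 9 markers of B cells and lymphoid follicles, measured as RNA in the jejunal mucosa of mice. They are the B cell surface genes Ms4a1, Cd79a, Cd79b, Cr2, Fcer2a, Cxcr5 and Cd22 and the transcription factor genes Pax5 and Bach2. They were chosen by symbol, with earlier results of these same libraries known, and are 9 of 56980 gene identifiers in the count files. All 9 were among the 15986 tested genes, those for which 4 or more libraries held 10 or more counts. Because the choice was made with the genotype difference in view, the difference of these 9 genes between genotypes is given as a description and not as a test.

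The study asked what happens in the intestine when fat cells lose FFA2, a receptor for short-chain fatty acids encoded by Ffar2. Male Adipoq-F2-KO mice carry floxed FFA2 alleles and a Cre recombinase driven by the Adiponectin promoter, which is active in adipocytes, and their co-housed FFA2 fl/fl littermates carry the floxed alleles without Cre. Both genotypes were 12 weeks old when they were moved from chow to a Western diet with 10% fructooligosaccharides, a fermentable fiber, and were sampled after 2 weeks of this diet in thermoneutral housing. RNA from mucosal scrapings of 4 mice per genotype was sequenced, giving 8 libraries. Since the deletion is directed at adipocytes, Ffar2 in the jejunum does not check the genotype labels, and its counts were 2 to 18 in the FFA2 fl/fl libraries and 3 to 13 in the Adipoq-F2-KO libraries. The labels describe the samples as a mixture of cell types and give no count of follicles in the scraped segments.

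B cells of the small intestine are gathered in Peyer's patches and in isolated lymphoid follicles, where naive cells carrying IgM and IgD sit among follicular dendritic cells below a specialized epithelium with M cells. The receptor CXCR5 brings B cells into the follicle along the chemokine CXCL13, the complement receptor CR2 and the low-affinity IgE receptor (Fcer2a, CD23) mark mature B cells and follicular dendritic cells, and PAX5 holds the B cell program in place. Cells that become plasma cells, which make most of the IgA of the gut wall, switch PAX5 and most of these surface genes off.

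The libraries held 6007654 to 21712776 counts, and 3 of them (FFA2 fl/fl 3 and Adipoq-F2-KO 3 and 4) held under 10000000. Genes of the absorptive enterocyte dominated every library, with Mgam, an intestinal disaccharidase, at 131444 to 165041 normalized counts. Normalized counts are counts divided by the size factor of the library. The 8 markers other than Bach2 together made up 2.20 to 56.5 CPM, counts scaled to a common library total. Library 2 of FFA2 fl/fl was the highest of its genotype in each of these 8 genes, and the summed level, fold changes and calls of these genes are also given without it. Library 3 of FFA2 fl/fl stood apart in smooth muscle genes, whose summed level was 30427 normalized counts there and 3768 to 12587 in the other 7 libraries.

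The regions just upstream of 2 of the genes are shown because Cr2 and Cd22 were among those that moved most closely together over the 8 libraries, and because these windows hold short motifs of the kind bound by lymphoid transcription factors. They are the 250 bases before the RefSeq start of each gene, in build GRCm38.p6, from chr1:195176720-195176969 and chr7:30879029-30879278, both on the minus strand and written 5′ to 3′, with motif matches in capitals.
Cr2: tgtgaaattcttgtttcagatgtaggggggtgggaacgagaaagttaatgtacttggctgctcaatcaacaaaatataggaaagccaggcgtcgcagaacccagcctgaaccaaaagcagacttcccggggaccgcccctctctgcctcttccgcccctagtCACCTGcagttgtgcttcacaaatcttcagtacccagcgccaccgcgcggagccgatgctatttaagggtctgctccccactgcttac
Cd22: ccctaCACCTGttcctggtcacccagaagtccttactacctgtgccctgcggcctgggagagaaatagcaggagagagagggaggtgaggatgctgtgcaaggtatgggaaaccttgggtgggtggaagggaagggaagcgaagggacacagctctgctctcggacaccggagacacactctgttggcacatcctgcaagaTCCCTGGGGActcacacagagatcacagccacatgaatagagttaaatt
The capitals in Cr2 mark CACCTG, the reverse complement of the E-box CAGGTG, 88 to 83 bases before the start. In Cd22 they mark the same letters at 245 to 240 bases and TCCCTGGGGA, a match to the kind of motif bound by the early B cell factor EBF1 (TCCC and GGGA with any 2 bases between them), at 49 to 40 bases before the start. A promoter was given for 6 of the 9 genes, with 8 windows in all, and not for Ms4a1, Cd79b and Cxcr5. On either strand, the EBF1-type motif was in 0.779% of all 32851 windows of this length and in 1 of the 8, and CAGGTG was in 17.2% of all windows and in 4 of the 8, those of Cr2, Cd22, Cd79a and Fcer2a. The octamer ATGCAAAT, found in 1.6% of all windows, was in none of the 8, and the ETS-type AGGAAGT, found in 7.69%, was in 1, that of Cd79a. These matches describe letters only, and none of the searched motifs overlapped another in the windows shown.

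Among the surface genes, Ms4a1 encodes CD20, a membrane protein of mature B cells. Ms4a1 (ENSMUSG00000024673, chromosome 19) stood at 1.21, 70.6, 18.8 and 3.87 normalized counts in FFA2 fl/fl libraries 1 to 4 and at 19.7, 91.8, 42.0 and 56.4 in Adipoq-F2-KO libraries 1 to 4. FFA2 fl/fl library 2 was above every Adipoq-F2-KO library except number 2, while the other 3 FFA2 fl/fl libraries were below all 4 of them. The means were 23.6 ± 32.3 and 52.5 ± 30.2 (SD, n = 4 each), a log2 fold change of 1.15 (SE 1.12), Adipoq-F2-KO over FFA2 fl/fl. In bulk samples like these, fewer B cells and less RNA per B cell cannot be told apart.

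Cd79a and Cd79b encode the paired signalling chains of the B cell receptor. Cd79a (ENSMUSG00000003379, chromosome 7) was at 7.88, 51.7, 23.0 and 1.55 normalized counts in FFA2 fl/fl libraries 1 to 4 and at 20.5, 63.2, 28.0 and 41.4 in Adipoq-F2-KO libraries 1 to 4. Its partner Cd79b (ENSMUSG00000040592, chromosome 11) was at 8.48, 39.0, 12.5 and 3.10 in FFA2 fl/fl and at 18.2, 57.7, 16.02 and 31.96 in Adipoq-F2-KO. In both genes library 2 was the highest of its genotype, library 4 was the lowest of the FFA2 fl/fl libraries and the second highest of the Adipoq-F2-KO libraries, and the genotypes overlapped. The log2 fold changes were 0.87 (SE 0.75) for Cd79a and 0.96 (SE 0.70) for Cd79b, from means of 21.02 ± 22.3 and 38.3 ± 18.7 for Cd79a and of 15.8 ± 15.96 and 30.9 ± 19.2 for Cd79b (SD, n = 4 each). With 1 library left out, Cd79a ran from 0.47 (without FFA2 fl/fl 4) to 1.99 (without FFA2 fl/fl 2). Cd79b ran from 0.45 (without Adipoq-F2-KO 2) to 2.06 (without FFA2 fl/fl 2).

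Cr2, the complement receptor, had the largest fold change of the 9 over all 8 libraries, in the fit by genotype alone. Pax5 was larger without FFA2 fl/fl library 2 (4.17 against 3.03 on the log2 scale) and without library 2 of both genotypes (3.73 against 2.61). Cr2 (ENSMUSG00000026616, chromosome 1) was at 3.03, 47.4, 20.9 and 1.55 normalized counts in FFA2 fl/fl libraries 1 to 4 and at 30.0, 98.6, 30.0 and 73.3 in Adipoq-F2-KO libraries 1 to 4. All Adipoq-F2-KO libraries were above FFA2 fl/fl libraries 1, 3 and 4, and libraries 2 and 4 were also above FFA2 fl/fl library 2. The means were 18.2 ± 21.4 and 58.0 ± 33.9 (SD, n = 4 each), with a log2 fold change of 1.67 (SE 1.03).

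Fcer2a encodes CD23, and Cxcr5 encodes the homing receptor of the follicle. Fcer2a (ENSMUSG00000005540, chromosome 8) stood at 6.66, 31.1, 12.5 and 9.29 normalized counts in FFA2 fl/fl libraries 1 to 4 and at 15.8, 45.3, 12.0 and 52.6 in Adipoq-F2-KO libraries 1 to 4. Cxcr5 (ENSMUSG00000047880, chromosome 9) stood at 4.85, 29.5, 12.5 and 3.10 in FFA2 fl/fl and at 11.8, 42.2, 10.0 and 37.6 in Adipoq-F2-KO. Libraries 2 and 4 of Adipoq-F2-KO were above all FFA2 fl/fl libraries in both genes, and Adipoq-F2-KO library 3 was below FFA2 fl/fl library 3 in both. Fcer2a was the single gene of the 8 in which Adipoq-F2-KO library 4, and not 2, was the highest of its genotype. The log2 fold changes were 1.06 (SE 0.63) for Fcer2a, from 14.9 ± 11.1 and 31.4 ± 20.5, and 1.02 (SE 0.74) for Cxcr5, from 12.5 ± 12.1 and 25.4 ± 16.8 (SD, n = 4 each). The exons of Cxcr5 overlap those of Bcl9l on the other strand, a gene with 5748 counts over the 8 libraries, and since the strand setting of the counting is not given in the sources used here, the values of Cxcr5 are uncertain.

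Cd22 encodes an inhibitory lectin that restrains the B cell receptor. Cd22 (ENSMUSG00000030577, chromosome 7) was at 6.06, 82.2, 16.7 and 3.87 normalized counts in FFA2 fl/fl libraries 1 to 4 and at 26.8, 108, 30.0 and 84.6 in Adipoq-F2-KO libraries 1 to 4. Adipoq-F2-KO library 4 was barely above FFA2 fl/fl library 2, Adipoq-F2-KO libraries 1 and 3 were below it, and the other FFA2 fl/fl libraries were below all of Adipoq-F2-KO. The means were 27.2 ± 37.1 and 62.3 ± 40.3 (SD, n = 4 each), with a log2 fold change of 1.19 (SE 1.02).

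Pax5, the transcription factor that commits cells to the B lineage, had the widest spread between libraries. Pax5 (ENSMUSG00000014030, chromosome 4) stood at 1.82, 80.1, 10.5 and 0 normalized counts in FFA2 fl/fl libraries 1 to 4 and at 24.5, 129.6, 22.02 and 80.8 in Adipoq-F2-KO libraries 1 to 4. FFA2 fl/fl library 4 held no Pax5 count, which at its depth allows up to 2.32 normalized counts (3 counts, counting error only), while library 2 of the same genotype held 152 counts. The means were 23.1 ± 38.3 and 64.2 ± 51.3 (SD, n = 4 each), and the log2 fold change of 1.47 had an SE of 1.50. Exons of Pax5 overlap 2 short noncoding genes on the other strand with 18 and 24 counts in all.

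Bach2, a transcriptional repressor of B and T cells that delays plasma cell formation, differed from the other 8 genes in its pattern over the libraries. Bach2 (ENSMUSG00000040270, chromosome 4) was at 180.5, 179.7, 173.6 and 217.5 normalized counts in FFA2 fl/fl libraries 1 to 4 and at 270.0, 305.0, 236 and 289.5 in Adipoq-F2-KO libraries 1 to 4. Every Adipoq-F2-KO library was above every FFA2 fl/fl library, and FFA2 fl/fl library 2 was not among the high ones. The means were 187.8 ± 20.01 and 275.2 ± 29.7 (SD, n = 4 each), a log2 fold change of 0.55 (SE 0.15). The SD was 10.7% of the mean in FFA2 fl/fl and 10.8% in Adipoq-F2-KO, against 74.3% to 166% and 48.9% to 79.9% in the other 8 genes. Bach2 overlaps an antisense transcript, Bach2os, with 63 counts over the 8 libraries, and holds Bach2it1 in an intron, with 110.

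**Figure D1:**
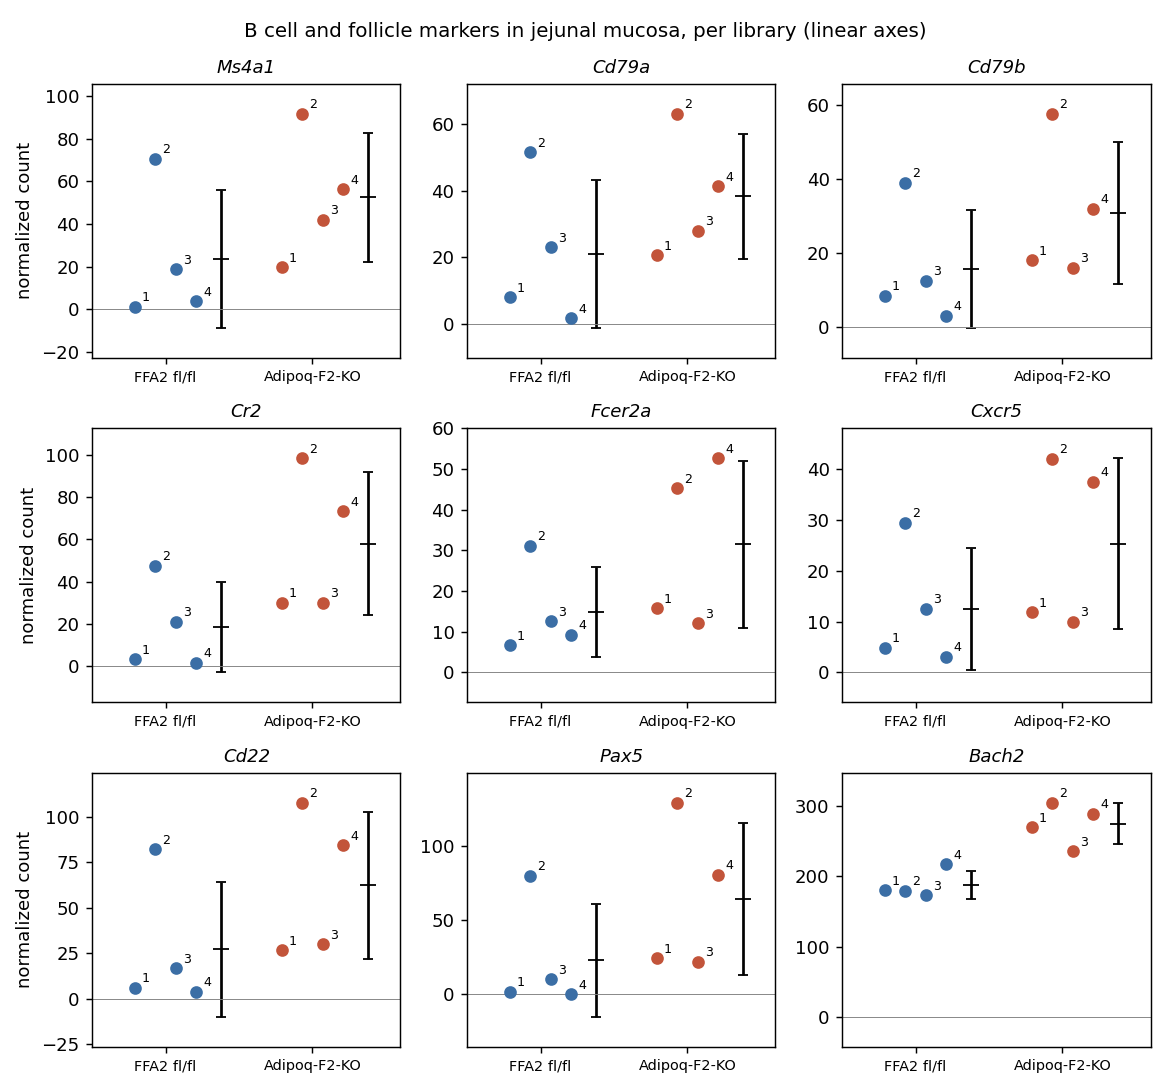
Normalized counts (y axis, linear, a separate scale for each gene) of the 9 markers in each library, by genotype on the x axis. Points are single libraries with their replicate number, and the dash and bar beside them are the mean and SD of 4 libraries, a bar that can reach below 0 although counts cannot. Library 2 is the highest FFA2 fl/fl library in 8 genes, for example at 80.1 against 0 to 10.5 for Pax5 and at 51.7 against 1.55 to 23.0 for Cd79a, and Bach2 is the gene in which the genotypes do not overlap.

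All 9 genes had a log2 fold change above 0, as did 48.5% of all tested genes, with a median of 1.06 against −0.01 over all tested genes. None of the 9 had an adjusted p below 0.05 in DESeq2, which called 0.0375% of all tested genes, or in edgeR, which called 0.0125%. At an unadjusted p below 0.05 both tools counted 1 of the 9, Bach2, where DESeq2 counted 3.03% of all tested genes and edgeR 3.48%. Groups that did not overlap, with all of Adipoq-F2-KO higher, were seen in 1 of the 9, again Bach2, and in 1.1% of all tested genes. Nothing is read from these counts, since the genes were chosen with this contrast known. All 9 passed the count filter, but Ms4a1, Cxcr5 and Pax5 had 10 or more counts in only 1 FFA2 fl/fl library and in 3 or 4 Adipoq-F2-KO libraries, so they passed it mainly through the group in which they were higher.

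The 8 genes other than Bach2 rose and fell together from library to library, with a wide spread within each genotype. Their summed level was 39.98, 431.7, 127.6 and 26.3 normalized counts in FFA2 fl/fl libraries 1 to 4 and 167.4, 636.1, 190.2 and 458.7 in Adipoq-F2-KO libraries 1 to 4. The highest library, Adipoq-F2-KO 2, was 24.2 times the lowest, FFA2 fl/fl 4, and within FFA2 fl/fl library 2 was 16.4 times library 4. All 4 Adipoq-F2-KO libraries were above FFA2 fl/fl libraries 1, 3 and 4, and 2 of the 4 were above FFA2 fl/fl library 2. The means were 156.4 ± 188.9 and 363.1 ± 225.0 (SD, n = 4 each), a ratio of 2.32. Without FFA2 fl/fl library 2 the FFA2 fl/fl mean was 64.6 ± 54.9 (SD, n = 3) and the ratio 5.62, and without library 2 of both genotypes the ratio was 4.21. Without Adipoq-F2-KO library 2 alone the difference was smaller, with an Adipoq-F2-KO mean of 272.1 against the FFA2 fl/fl mean of 156.4.

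Library 2 was the highest of its genotype in both genotypes for 7 of the 9 genes, a pattern shared by 6.67% of all tested genes. In FFA2 fl/fl, library 2 was 18.3 times the median of the other 3 for Ms4a1, 15.7 times for Cr2 and 13.6 times for Cd22, and 3.35 times for Fcer2a. For Pax5 the middle one of the other 3 held only 3 counts, against 152 in library 2, and no ratio is given. In Adipoq-F2-KO the same ratio was smaller, from 2.18 for Ms4a1 to 5.30 for Pax5. For Bach2 it was 0.996 in FFA2 fl/fl and 1.13 in Adipoq-F2-KO. The labels do not tie libraries with the same number to a shared batch or litter.

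The size of the genotype difference in the 8 genes depended on single libraries, and most on FFA2 fl/fl library 2. Without it the median log2 fold change of the 8 was 2.52, against 1.10 with it, and that of all 9 was 2.06. Leaving out another single library gave medians of the 8 from 0.75 (without Adipoq-F2-KO 2) to 1.36 (without Adipoq-F2-KO 1). The medians without FFA2 fl/fl 1 and FFA2 fl/fl 4 were 0.77 and 0.80. Single genes of the 8 ran from 1.79 to 4.17 without FFA2 fl/fl library 2 and from 0.45 to 1.28 without Adipoq-F2-KO library 2. Without FFA2 fl/fl library 2, DESeq2 called 3 of the 9 genes at an adjusted p below 0.05, where it called 0.144% of all tested genes. These were Ms4a1 with a log2 fold change of 2.97 (SE 0.75), Cr2 with 3.03 (SE 0.74) and Cd22 with 2.98 (SE 0.64). The count is a description only, since the genes were chosen with this contrast known and the library left out is the one high among the controls. Of the 3 FFA2 fl/fl libraries that remain, none held 10 or more counts of Ms4a1, and 1 did for Cr2 and for Cd22. Without replicate 2 of both genotypes, a comparison added after the values were seen, the median of the 8 was 2.09 and DESeq2 called none of the 9 and 0.0313% of all tested genes. At an unadjusted p below 0.05 it counted 8 of the 9 and 2.09% of all tested genes. In those 3 libraries per genotype, all Adipoq-F2-KO values were above all FFA2 fl/fl values for 6 of the 9 genes (Ms4a1, Cd79b, Cr2, Cd22, Pax5 and Bach2), as for 4.18% of all tested genes. Bach2 moved little, with a log2 fold change of 0.53 (SE 0.18) without FFA2 fl/fl library 2.

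**Figure D2:**
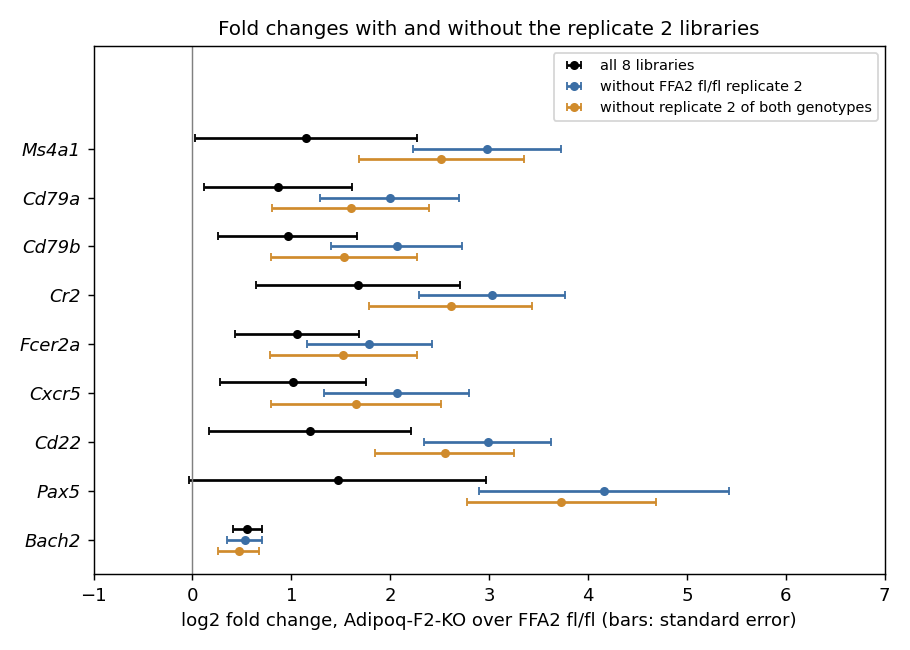
Log2 fold changes of the 9 markers (x axis, Adipoq-F2-KO over FFA2 fl/fl, from DESeq2), with bars for the standard error. Colors mark the fit to all 8 libraries, the fit without FFA2 fl/fl replicate 2 and the fit without replicate 2 of both genotypes, so that Cr2, for example, goes from 1.67 to 3.03 and 2.61 while Bach2 stays between 0.47 and 0.55.

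Each gene was compared with the mean of the other markers, with Bach2 left out of every mean. Over the 8 libraries, this correlation (Pearson's r of log2(normalized count + 1), a description with n = 8) was highest for Cd22 and Pax5, both at 0.99. Cr2 reached 0.98, Cxcr5 and Cd79b 0.97, Cd79a 0.95, Ms4a1 0.93 and Fcer2a 0.89. With each genotype centred on its own mean, these values were 0.84 to 0.99, so the genes moved together inside each genotype as well. Bach2 had an r of 0.50 over the 8 libraries and −0.09 within genotypes. The points share library preparation and depth, and within a library the genes share the same tissue piece. Without library 2 of both genotypes the r of Bach2 was 0.63 over 6 libraries. Its pattern thus followed that of the other 8 less closely, and which cells its RNA came from was not tested.

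The share of Cr2 among the counts of the 8 genes varied between libraries. Cr2 made up 7.58% (95% Wilson interval 3.28 to 16.5), 10.99% (9.03 to 13.3), 16.4% (9.16 to 27.6) and 5.88% (1.63 to 19.1) of these counts in FFA2 fl/fl libraries 1 to 4. In Adipoq-F2-KO libraries 1 to 4 its share was 17.9% (13.3 to 23.6), 15.5% (13.4 to 17.8), 15.8% (9.81 to 24.4) and 15.98% (11.9 to 21.1). The shares were lowest in FFA2 fl/fl libraries 1 and 4, which held 5 and 2 Cr2 counts, and the intervals, which cover counting error only, overlap in most pairs of libraries. Spread between mice is not part of these intervals, so they do not test whether the genotypes differ in this share.

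Levels can be compared between genes only per length. Per kilobase of exon, the mean normalized count over the 8 libraries was 23.3 for Bach2, 20.4 for Cd79a and 16.3 for Cd79b, and the other 6 lay between 4.70 for Cr2 and 8.88 for Cd22. In FFA2 fl/fl library 2 and Adipoq-F2-KO library 2, Cd79a, at 35.5 and 43.4 per kilobase, was above Bach2, at 18.1 and 30.7. Neighbours in this order, such as Fcer2a (7.49), Ms4a1 (6.15) and Cxcr5 (5.69), differed by far less than their spread over libraries.

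Of the 15977 tested genes outside the 9, the 10 whose pattern over the 8 libraries was most like the mean of the 9 markers had r from 0.993 down to 0.971, and among them were, in order, Bank1, Ighm, Chst3, Ighd, Fcmr, Cd37, Ighg2b, Olfr56 and Plxnc1. An r above 0.9 was found for 67 genes. Bank1, an adaptor of B cell receptor signalling, was at 5.45, 83.8, 29.3 and 3.87 normalized counts in FFA2 fl/fl libraries 1 to 4 and at 29.2, 119, 44.0 and 103.4 in Adipoq-F2-KO libraries 1 to 4. It repeats the order seen in the markers, with FFA2 fl/fl libraries 1 and 4 lowest and Adipoq-F2-KO library 2 highest. Its log2 fold change was 1.27 (SE 1.01) over all 8 libraries. It was 2.70 (SE 0.67) without FFA2 fl/fl library 2 and 0.90 (SE 0.96) without FFA2 fl/fl library 4. Ighm and Ighd, the constant regions of IgM and IgD on naive B cells, had log2 fold changes of 1.13 (SE 0.81) and 1.17 (SE 1.17). These were 1.91 and 2.57 without FFA2 fl/fl library 2. The lowest values with 1 library left out were 0.80 for Ighm (without FFA2 fl/fl 4) and 0.67 for Ighd (without Adipoq-F2-KO 2). Ighd ran from 1.55 normalized counts in FFA2 fl/fl library 4 to 133.3 in Adipoq-F2-KO library 2. Ighg2b, an IgG constant region, was an exception in that FFA2 fl/fl library 2 was its highest, at 104.4 against 93.6 in Adipoq-F2-KO library 2, and its counts are uncertain because the IgG constant regions are near copies of each other. Olfr56 shares its place on the genome and strand with Ifi47, so its counts are uncertain.

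**Figure D3:**
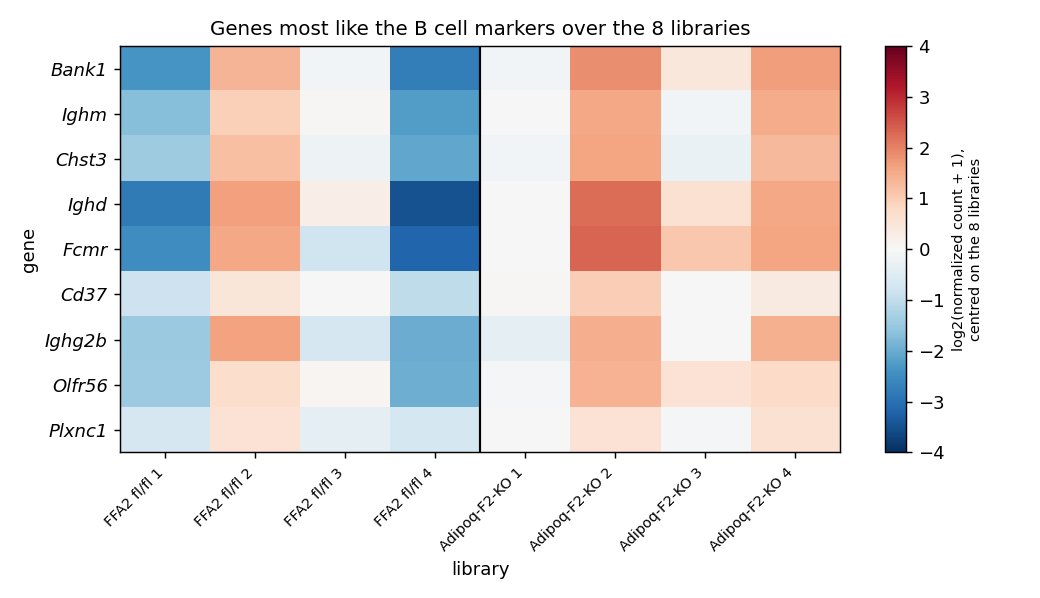
Genes named in the text as most like the B cell markers (rows) in each library (columns), colored by log2(normalized count + 1) centred on the 8 libraries. Blue marks FFA2 fl/fl libraries 1 and 4 and red marks library 2 of both genotypes and Adipoq-F2-KO library 4, as for Bank1 at 5.45 and 3.87 against 83.8, 119 and 103.4 normalized counts.

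Other genes of the B lineage and the follicle, and markers of other cell types, were grouped into 14 lists, with 180 genes, of which 143 were tested. None had an adjusted p below 0.05 in DESeq2 or edgeR. At an unadjusted p below 0.05 DESeq2 counted 13 (11 higher and 2 lower in Adipoq-F2-KO), or 9.09% of the 143 against 3.03% of all tested genes, and edgeR counted 12. The log2 fold change was above 0 for 102 of the 143, with a median of 0.26. The lists were chosen with earlier results known, so these counts describe the genes and are not evidence for a direction. For each list, the lowest and the highest median found when 1 library was left out are given beside the median, with the library.

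Other B cell surface genes followed the 9 markers most closely. All 14 that were tested, of 22 listed, had log2 fold changes above 0, with a median of 1.15 (0.70 without Adipoq-F2-KO 2 to 2.30 without FFA2 fl/fl 2), and 1 had an unadjusted p below 0.05. The score of the list (the mean of centred log2 values) had an r of 0.99 with the score of the 8 markers over the 8 libraries.

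Genes of B cell receptor signalling and the lineage transcription factors, many of which other blood cells also use, differed less. Of the 20 signalling genes tested, 17 were above 0 with a median of 0.21 (0.12 without FFA2 fl/fl 1 to 0.31 without FFA2 fl/fl 3), and 2 had an unadjusted p below 0.05. Among these was Btk, the kinase below the receptor, which had a log2 fold change of 1.17 (SE 0.56, DESeq2 adjusted p = 0.9998), or 2.02 (SE 0.52, DESeq2 adjusted p = 0.0713) without FFA2 fl/fl library 2. Its lowest library, FFA2 fl/fl 3, held 2 counts, and without that library the log2 fold change was 0.95 (SE 0.53). Among 13 lineage transcription factors, 10 were above 0 with a median of 0.46 (0.37 without FFA2 fl/fl 4 to 0.57 without Adipoq-F2-KO 3).

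Ikzf1, the lymphoid transcription factor Ikaros, had the evenest Adipoq-F2-KO values of the genes named. It stood at 78.1, 130.2, 123.4 and 95.2 normalized counts in FFA2 fl/fl libraries 1 to 4 and at 156.3, 156.9, 158.2 and 157.9 in Adipoq-F2-KO libraries 1 to 4. The log2 fold change was 0.57 (SE 0.20, DESeq2 adjusted p = 0.993), and all Adipoq-F2-KO libraries were above all FFA2 fl/fl libraries.

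Genes of the follicle around the B cells were mostly low. Cxcl13, the ligand of CXCR5 made by follicular stroma, fell under the count filter, with 0.606, 16.9, 8.36 and 0.774 normalized counts in FFA2 fl/fl libraries 1 to 4 and 5.53, 17.98, 8.01 and 22.6 in Adipoq-F2-KO libraries 1 to 4, from 1 to 32 counts each. Library 2 of both genotypes and Adipoq-F2-KO library 4 were the highest, as in the 8 markers, and FFA2 fl/fl libraries 1 and 4, with 1 count each, the lowest. Ccl19, a ligand of the T zone receptor CCR7, had 3 counts in all and was at 0 in 6 of the 8 libraries. The germinal center list, 9 of 12 tested, had a median log2 fold change of 0.09 (−0.04 without Adipoq-F2-KO 4 to 0.26 without FFA2 fl/fl 2), and its most abundant genes were Bcl6 at −0.00 (SE 0.21) and Fas at 0.03 (SE 0.23), which other mucosal cells also express.

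In the list of follicular stroma and homing genes, 7 of 14 were tested, 6 were above 0 and the median was 0.56 (0.33 without Adipoq-F2-KO 2 to 0.73 without Adipoq-F2-KO 1). Clu, a secreted chaperone abundant in follicular dendritic cells, was at 21.8, 88.5, 100.4 and 24.8 normalized counts in FFA2 fl/fl libraries 1 to 4 and at 75.8, 164.9, 146.2 and 142.9 in Adipoq-F2-KO libraries 1 to 4. FFA2 fl/fl libraries 1 and 4 were again the lowest, and the groups overlapped through Adipoq-F2-KO library 1. The log2 fold change of Clu was 1.19 (SE 0.47) and that of Mfge8, which follicular dendritic cells use to tag dying cells, was 0.58 (SE 0.27), both at a DESeq2 adjusted p of 0.9998. Which cells of the mixed samples made the RNA of Clu and Mfge8 was not tested. The summed level of the list was 1780 to 2205 normalized counts in FFA2 fl/fl and 1705 to 2243 in Adipoq-F2-KO. Of the lymphotoxin and BAFF ligands 4 of 9 were tested, with a median of 0.00 (−0.05 without Adipoq-F2-KO 3 to 0.11 without FFA2 fl/fl 1). Tnfsf13 (APRIL), a survival factor for plasma cells whose exons overlap other genes on both strands, had a log2 fold change of −0.49 (SE 0.24, DESeq2 adjusted p = 0.9998).

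For the epithelium above follicles, 9 of 11 genes were tested, 7 were above 0 and the median was 0.32 (0.18 without Adipoq-F2-KO 2 to 0.65 without FFA2 fl/fl 3). Marcksl1 was at 52.1, 73.8, 104.6 and 40.2 normalized counts in FFA2 fl/fl libraries 1 to 4 and at 127.1, 120.9, 94.1 and 131.6 in Adipoq-F2-KO libraries 1 to 4. Its log2 fold change was 0.86 (SE 0.29, DESeq2 adjusted p = 0.853), with FFA2 fl/fl library 3 above Adipoq-F2-KO library 3. Tnfaip2 did not overlap between groups, with 11.6 to 18.4 normalized counts in FFA2 fl/fl and 23.6 to 33.8 in Adipoq-F2-KO, and had a log2 fold change of 0.91 (SE 0.36, DESeq2 adjusted p = 0.9998). Gp2, the receptor that marks mature M cells, had 1 to 10 counts per library. The score of this list had an r of 0.53 with that of the 8 markers, against 0.92 for the follicular stroma list.

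Plasma cell genes moved with the B cell markers between libraries, and the size of their genotype difference rested on FFA2 fl/fl libraries 2 and 4. Igha, the IgA constant region, was at 5821, 13456, 4776 and 2267 normalized counts in FFA2 fl/fl libraries 1 to 4 and at 4519, 7940, 9256 and 8861 in Adipoq-F2-KO libraries 1 to 4. FFA2 fl/fl library 2 was the highest of all 8, and library 4 of that genotype the lowest. The log2 fold change was 0.22 (SE 0.55) for Igha and 0.36 (SE 0.58) for Igkc, the kappa light chain. Over the 9 plasma cell genes tested the median was 0.22. Without FFA2 fl/fl library 2 it was 0.83, with Igha at 0.83 (SE 0.30, DESeq2 adjusted p = 0.770) and Igkc at 0.95 (SE 0.49), while without library 4 of that genotype it was 0.03, with Igha at −0.07 (SE 0.44). Over all 8 libraries the score of the list had an r of 0.90 with that of the 8 markers.

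Markers of other cells were looked at because they could move with the B cell genes. Macrophage and dendritic cell genes had log2 fold changes above 0 in 13 of 14, with a median of 0.46 (0.33 without FFA2 fl/fl 4 to 0.73 without FFA2 fl/fl 2) and an r of 0.91 with the score of the 8 markers. Their summed level was 373 to 791 normalized counts in FFA2 fl/fl and 603 to 1019 in Adipoq-F2-KO, and Lyz2, macrophage lysozyme, had a log2 fold change of 0.95 (SE 0.39, DESeq2 adjusted p = 0.9998). T cell genes were above 0 in 15 of 18, with a median of 0.29 (0.16 without Adipoq-F2-KO 3 to 0.42 without FFA2 fl/fl 3), but their score had an r of only 0.43 with that of the 8 markers. Cd4, the coreceptor of helper T cells that some macrophages also carry, was at 21.2, 39.5, 25.1 and 18.6 normalized counts in FFA2 fl/fl libraries 1 to 4 and at 33.2, 69.4, 48.1 and 77.1 in Adipoq-F2-KO libraries 1 to 4. Its groups overlapped at library 2 of FFA2 fl/fl, and its log2 fold change was 1.10 (SE 0.38, DESeq2 adjusted p = 0.976). Cd2, an adhesion molecule of T cells, had a log2 fold change of 1.35 (SE 0.60, DESeq2 adjusted p = 0.9998) with 5 to 25 counts per library. Of the T follicular helper genes 2 of 8 were tested, with a median of 0.03 (−0.13 without FFA2 fl/fl 4 to 0.12 without FFA2 fl/fl 2) and Cd200 at 0.05 (SE 0.30).

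Smooth muscle genes had log2 fold changes below 0 in 10 of 10, with a median of −0.85 (−1.62 without Adipoq-F2-KO 4 to 1.15 without FFA2 fl/fl 3) and none at an unadjusted p below 0.05 in DESeq2. This direction rested on FFA2 fl/fl library 3, without which 9 of 10 were above 0. Their score had an r of 0.66 with that of the 8 markers, and their summed level was 3768 to 30427 normalized counts in FFA2 fl/fl and 4149 to 12587 in Adipoq-F2-KO. Myh11, smooth muscle myosin, ran from 64.8 in FFA2 fl/fl library 1 to 9682 in library 3 of the same genotype. With the smooth muscle score as a covariate the median log2 fold change of the 9 B cell and follicle genes was 0.94. Enterocyte genes had a median of −0.02 (−0.06 without FFA2 fl/fl 4 to 0.03 without FFA2 fl/fl 3), and their summed level was 761419 to 839049 normalized counts in FFA2 fl/fl and 761129 to 842817 in Adipoq-F2-KO, with an r of 0.04. Adipocyte genes were above 0 in 1 of 6 tested, with a median of −0.33 (−0.65 without FFA2 fl/fl 4 to 0.44 without FFA2 fl/fl 3), and in 4 of 6 without FFA2 fl/fl library 3. In a separate fit without Adipoq-F2-KO library 1 only, their median was 0.01. Fabp4, a fatty acid carrier of adipocytes, was at 243 normalized counts in FFA2 fl/fl library 3. It was at 108.1 and 94.0 in Adipoq-F2-KO libraries 3 and 4, and at 0.774 to 12.6 in the other 5. Cidec, a lipid droplet protein that enterocytes also make, had a log2 fold change of −0.49 (SE 0.13, DESeq2 adjusted p = 0.232). The part of these other cells in the B cell values was not tested.

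**Figure D4:**
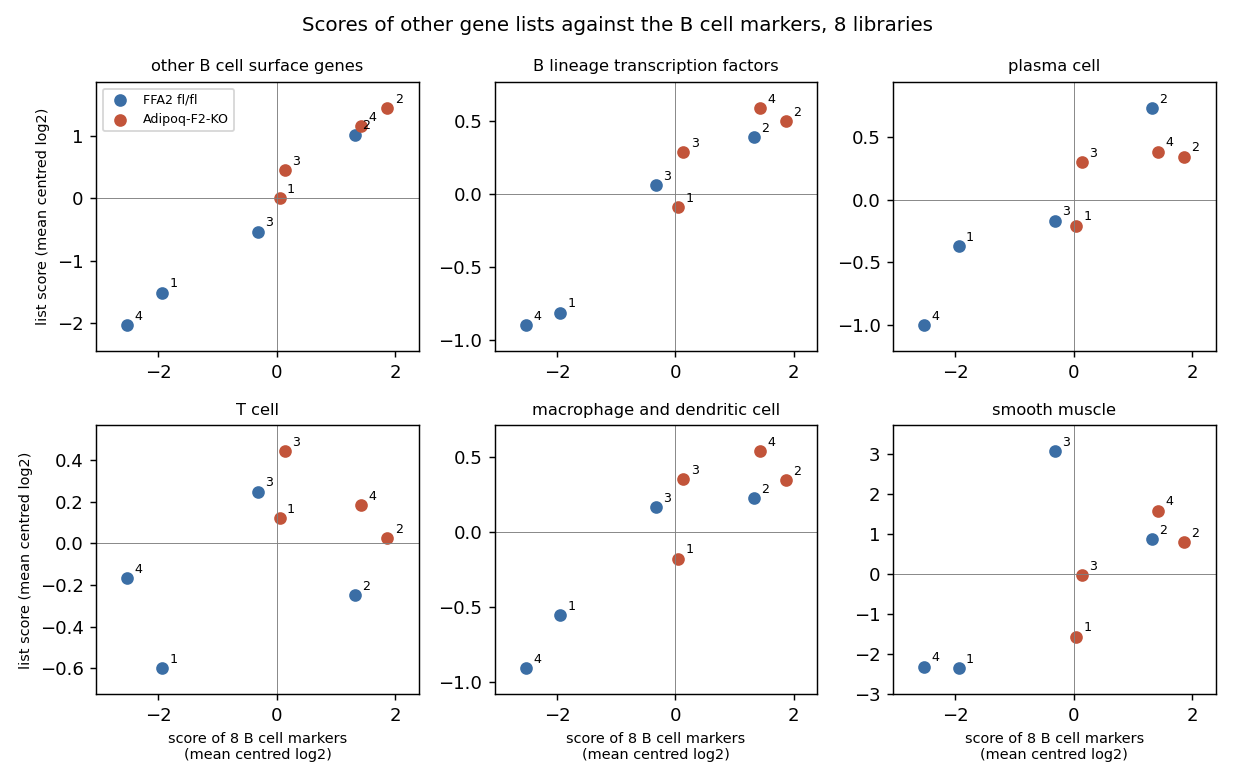
Scores of 6 gene lists (y axes, mean of log2 values centred on the 8 libraries) against the score of the 8 B cell markers (x axes, same scale type), with 1 point per library and its replicate number. Other B cell surface genes lie along a line (r of 0.99), plasma cell and macrophage genes follow less tightly (0.90 and 0.91), and T cell (0.43) and smooth muscle genes (0.66) are scattered, with FFA2 fl/fl library 3 far up in smooth muscle.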

How the data were processed

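Poly(A)-selected RNA of jejunal mucosal scrapings was sequenced with a stranded kit as single reads of 75 bp from 4 FFA2 fl/fl and 4 Adipoq-F2-KO mice, grouped and numbered by their titles. The authors trimmed the reads with Trimmomatic, aligned them with STAR and counted them per gene with featureCounts. The deposited values are raw counts per gene, neither normalized nor pooled, and 0 columns were left unmapped. The submitters' processing notes name GRCm38 and mm10. Versions, annotation release and strand setting are not given in the sources used here. Symbols and exon lengths came from GENCODE M21, with a symbol for 52073 of 56980 identifiers. Overlaps with other genes were taken from the same annotation, and promoter windows from RefSeq.

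Genes for which 4 or more libraries held 10 or more counts were tested with DESeq2 1.42.0 in R 4.3.3 (genotype as the only term, Wald test, two-sided, Benjamini-Hochberg adjustment), as the authors also used DESeq2. Scores used log2(normalized count + 1). The 9 genes and the 14 other lists were chosen with earlier results of these data known. The 9 genes were named in full. In each list the text names the 3 lowest unadjusted p-values under 0.05, fewer where fewer exist, or otherwise the 2 genes with the highest mean, and in addition the 10 genes most correlated with the markers. Cxcl13, Ccl19 and Gp2 were named after their values were seen, and the results of some genes that this rule names are not reported here. Alternatives were TMM factors, no filter, the quasi-likelihood test of edgeR 4.0.16, a replicate block, a smooth muscle covariate, the libraries above 10000000 counts and leaving out each library. The scripts were tested on simulated data. Library totals of 6007654 to 21712776 limit precision for genes with few counts, and reads carry no molecular identifiers, so floors (3 counts) and intervals cover counting error only.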

Additional observations from a re-analysis of the deposited data

Results flagged for a closer look

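In 3 of 18 groups of 4 libraries (9 genes in 2 genotypes), 1 library lay apart from the other 3, measured as its gap to the nearest library divided by the range of the group, against Dixon's 95% critical value for 4 samples. Chance gives this in about 1 in 20 groups, and the 9 genes are not independent. In FFA2 fl/fl the ratio was 0.836 for Cd22 and 0.869 for Pax5, in both through library 2 at the high end, and 0.841 for Bach2, through library 4 at the high end. None of the 9 groups of Adipoq-F2-KO libraries held such a library.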

How the results depend on the processing

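The log2 fold changes of the 9 genes were above 0 in all 135 values from the 15 alternatives. The median of the 9 ran from 0.72 (without Adipoq-F2-KO library 2) to 2.06 (without FFA2 fl/fl library 2), against 1.06. The number of the 9 genes called by DESeq2 was 0 and ranged from 0 to 3 when 1 library was left out, with 3 reached without FFA2 fl/fl library 2. Bach2 was at 0.47 to 0.64 throughout. For all tested genes, 6 calls became 3 with no filter on low counts, 2 with edgeR and 78 with the 5 libraries above 10000000 counts, and ranged from 2 to 103 when 1 library was left out (2 without FFA2 fl/fl 1, 23 without 2, 103 without 3, 3 without 4 and 3 without Adipoq-F2-KO 4). Of the 143 list genes, 0 were called, against 1 with the smooth muscle covariate (Clu), 1 in the 5 deeper libraries (Cidec) and 0 to 4 when 1 library was left out, with 4 without FFA2 fl/fl library 2 (among them Bank1, H2-Ob and Fcmr) and 4 without library 3 (Anxa5, Marcksl1, Cidec and Cfd, of which Cfd turned from −0.22 to 3.52). The cause of these moves was not tested. Deviations of same-numbered libraries correlated at 0.54, 0.29, 0.01 and −0.42, so the numbers do not establish a pairing, and only libraries 1 and 2 of each genotype correlated best with their own number. With the number as a replicate block, 11 genes were called in all, none of the 9, and the median of the 9 was 1.40, with Pax5 (2.91) above Cr2 (2.38). Without Adipoq-F2-KO library 2 or 4, DESeq2 gave no p for 2 of the 9, Cd22 and Pax5, and in the 5 deeper libraries it gave no adjusted p for 4 of the 9 (Cd79a, Cd79b, Fcer2a and Cxcr5), so these are not among the genes that could be called there. The 8 markers other than Bach2 held 34 to 1026 counts together per library, and how far depth limits the calls was not tested apart from the spread between libraries.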
